A study of Chlorella variabilis with 6 samples.

Results

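The genes described here are 6 nuclear-encoded parts of the photosynthetic light reactions in the unicellular green alga Chlorella variabilis: LHCC10 (CHLNCDRAFT_59584), a chlorophyll a/b binding protein (CHLNCDRAFT_48761), an oxygen-evolving enhancer protein (CHLNCDRAFT_32868), plastocyanin (CHLNCDRAFT_48299), photosystem I reaction center subunit III (CHLNCDRAFT_29874) and ferredoxin (CHLNCDRAFT_138861). They were chosen by locus from the light reaction genes that the study listed as upregulated in these same libraries, and they are 6 of the 9625 genes in the count tables. The difference between LOG OX1 and WT in these genes was thus used to select them, and it is described here with no test. The RNA came from 3 LOG OX1 and 3 WT cultures at 14 days post inoculation (dpi), collected 1 h before the dark phase. LOG OX1 is a single transgenic line that carries CvarLOG1, the alga's own LONELY GUY gene, behind the constitutive 35S promoter in the pMDC32 vector with hygromycin selection. WT is the untransformed NC64A strain, grown in the same medium and light cycle. LONELY GUY enzymes release active cytokinins, a class of plant hormones, from their nucleotide precursors. Because 1 line was sequenced, an effect of the introduced gene and an effect of this line cannot be told apart. The study reports that, at the age sampled, the transgenic line grew more slowly than WT and had fewer cells. It also reports a different distribution of the cells over the cell cycle. Genotype and growth state thus differed together between the groups, and the part of growth state in the differences described here was not tested. CvarLOG1 (CHLNCDRAFT_28106) had normalized counts of 437.4, 464.3 and 409.6 in LOG OX1, against 227.4, 226.6 and 266.5 in WT. Every LOG OX1 library lay above every WT library (log2 fold change 0.86, SE 0.086), with a 2-sided exact permutation p of 0.1, the smallest that 3 against 3 libraries allow. Reads from the introduced and the native copy were counted together.

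In the light reactions, antenna proteins hold chlorophylls and carotenoids and pass excitation energy to the reaction centers of the 2 photosystems. Photosystem II takes electrons from water, and the enhancer proteins on its lumenal side support the manganese cluster at which oxygen is released. Plastocyanin, a small copper protein, carries electrons from the cytochrome complex to photosystem I, where subunit III (PsaF) is known from Chlamydomonas to form part of its docking site. Ferredoxin, an iron-sulfur protein, takes the electrons from photosystem I and hands them on, mainly for the reduction of NADP. In bulk RNA, more transcript per cell and a larger share of cells that carry the transcript cannot be told apart.

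The qPCR primers that the study designed for 3 of these genes are shown because they mark the transcripts for which a second assay of the same RNA species exists. They are written 5′ to 3′ as forward (F) and reverse (R), with no base set apart. The chlorophyll a/b pair is assigned here to CHLNCDRAFT_48761, the PSI RC pair to CHLNCDRAFT_29874 and the plastocyanin pair to CHLNCDRAFT_48299 by the names in the study, and their match to the loci was not checked.
Chlorophyll a/b F: atctctgctcctcttcattggc
Chlorophyll a/b R: ttgttcagctccttggtctcc
PSI RC F: cgctttgacaactactccaagc
PSI RC R: gcaaagtagatgaagccgatgg
Plastocyanin F: atcaccgtcaactgagcttg
Plastocyanin R: acccataacgttagcaagcg
The primers were 20 to 22 bases long, with 50% to 52.4% G and C.

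The deposited tables hold raw read counts per gene. Total counts were between 10180885 and 12444029 in LOG OX1 and between 10743741 and 12546100 in WT. Values below are normalized counts, that is, counts scaled by edgeR's TMM factors to a common library size, and they are not divided by transcript length, so that levels of different genes are not ranked. A gene was called where its adjusted p in edgeR's quasi-likelihood test was at most 0.05 and its fold change at least 1.5. Of the 9101 genes tested, 28.6% were called, 14% as higher in LOG OX1 and 14.6% as lower. In 36.9% of the genes tested, each LOG OX1 library lay above each WT library. All 6 light reaction genes passed the filter on low counts, were called higher and did not overlap between the groups, which their selection largely fixed, so that nothing is read from these counts. With upper-quartile factors in place of TMM, the median log2 fold change of all genes moved to 0.112, against 0.001 with TMM, and 1673 of 2741 calls were higher in LOG OX1 (61%), against 1274 of 2602 (49%).

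The antenna genes stood at the top and in the middle of the range of differences. LHCC10 had normalized counts of 23671, 23623 and 23337 in LOG OX1, against 4049, 4180 and 4152 in WT. The LOG OX1 libraries had an SD of 181 and the WT libraries one of 68.8, and the groups lay far apart. The fold of LOG OX1 over WT was 5.70, or 2.51 on the log2 scale (SE 0.037), and 86 of the 9101 genes tested had a larger log2 fold change. The annotated span of LHCC10 overlaps that of the next gene, CHLNCDRAFT_48549, and the strand setting of the counting is not given in the sources used here, so reads in the shared stretch have an uncertain assignment. CHLNCDRAFT_48549 itself averaged 766 ± 70.4 in LOG OX1 and 1022 ± 45.2 in WT (SD, n = 3 each), fewer reads than LHCC10 had in either group. The chlorophyll a/b binding protein had 3658, 3649 and 3658 normalized counts in LOG OX1, against 1275, 1323 and 1347 in WT. Its LOG OX1 libraries had a CV of 0.138%, below the 1.69% that counting error alone gives at their mean count, so that this closeness is no measure of replicate spread. Its fold was 2.78 (log2 1.47, SE 0.041). It had the fewest reads of the 6 genes, with at least 1222 raw counts in each library.

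The oxygen-evolving enhancer protein, the photosystem II gene among the 6, had the second largest difference. Its normalized counts were 64250, 61701 and 62213 in LOG OX1, against 19062, 19236 and 19945 in WT. LOG OX1 replicate 1 and WT replicate 3 were the highest of their groups, and the lowest LOG OX1 library was still above the highest WT library. The fold was 3.23 (log2 1.69, SE 0.034), and 220 genes tested had a larger one.

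Plastocyanin had normalized counts of 28951, 28575 and 28110 in LOG OX1, against 11397, 11642 and 11482 in WT. The groups were narrow and apart, with CVs at or under 1.48% in both, and the fold was 2.48 (log2 1.31, SE 0.034). Photosystem I subunit III, on which plastocyanin docks, had 17401, 18518 and 18136 in LOG OX1, against 8830, 8808 and 9175 in WT. It had the smallest difference of the 6, with a fold of 2.02 (log2 1.01, SE 0.038), and LOG OX1 replicate 1 was its low library. This is the gene nearest to the 1.5-fold threshold of the selection, and 573 of the genes tested had a larger log2 fold change. Ferredoxin had 16119, 15579 and 15343 in LOG OX1, against 5981, 5985 and 6228 in WT. The groups did not overlap, and the fold was 2.59 (log2 1.37, SE 0.038), between those of plastocyanin and the chlorophyll a/b binding protein.

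**Figure D1:**
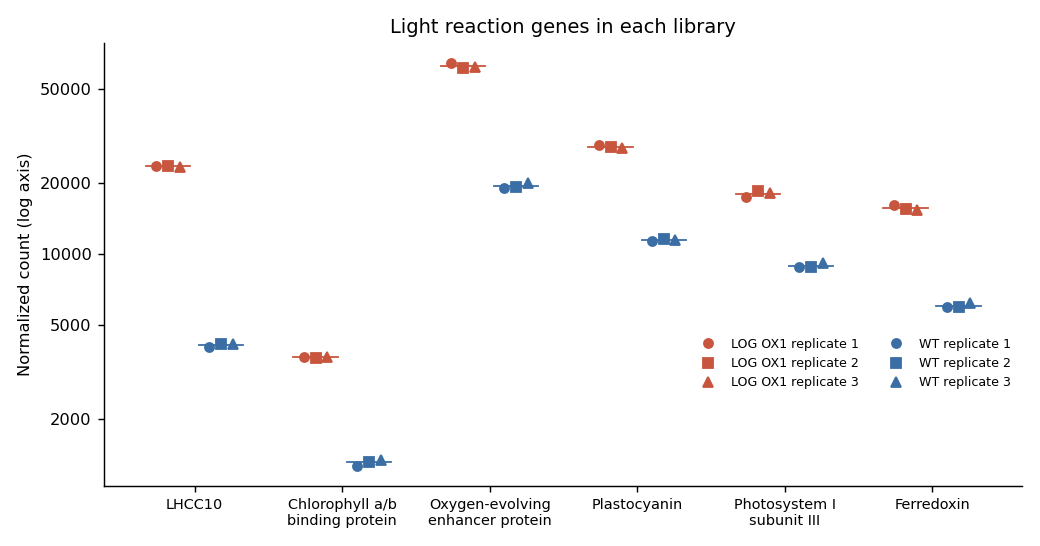
Normalized counts (log axis) of the 6 light reaction genes in each library, with LOG OX1 in red left of WT in blue, markers for replicates 1 to 3 and a line at each group's mean. All LOG OX1 points lie above the WT points of the same gene, with the widest gap for LHCC10 (5.70-fold) and the narrowest for photosystem I subunit III (2.02-fold).

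The median log2 fold change of the 6 genes was 1.42, against 0.0010 over all genes tested. They took 1.34%, 1.32% and 1.32% of all counts in LOG OX1 replicates 1, 2 and 3, against 0.451%, 0.452% and 0.462% in WT replicates 1, 2 and 3. Each LOG OX1 library thus gave these genes a share near 1.33% ± 0.0146 (SD, n = 3), and each WT library a share near 0.455% ± 0.00568 (SD, n = 3).

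**Figure D2:**
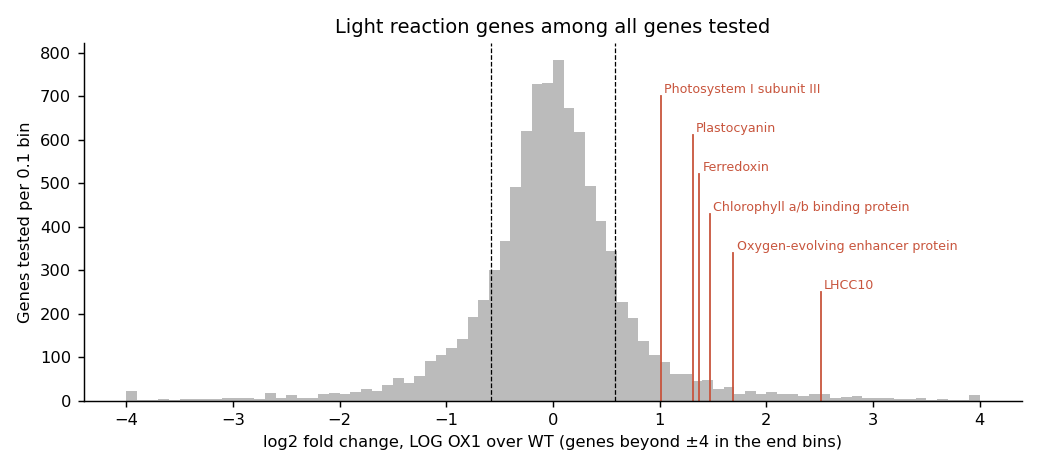
Histogram of the log2 fold change of LOG OX1 over WT for the 9101 genes tested (number of genes per bin), with the 6 light reaction genes as red lines whose heights only separate the names, and dashed lines at 1.5-fold in each direction. The genes lie between 1.01 (photosystem I subunit III) and 2.51 (LHCC10), in the upper tail.

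The 6 differences were not of one size, and the ratios between the genes within a library differed between the groups. These ratios of counts come from the values that selected the genes and are given as a description. The ratio of LHCC10 to the chlorophyll a/b binding protein, both antenna genes, was 6.47, 6.47 and 6.38 in LOG OX1, against 3.18, 3.16 and 3.08 in WT. It was 2.05 times as high in LOG OX1 by the group means, with no overlap. LHCC10 relative to the oxygen-evolving enhancer protein was 0.375 ± 0.00722 in LOG OX1 and 0.213 ± 0.00456 in WT (SD, n = 3 each). LHCC10 took 15.5% ± 0.105 of the counts of the 6 genes in LOG OX1, against 8.04% ± 0.12 in WT, and photosystem I subunit III took 11.8% ± 0.482 in LOG OX1, against 17.4% ± 0.167 in WT. LHCC10 thus had a larger share of these counts in each LOG OX1 library than in any WT library, and the photosystem I subunit a smaller one. The chlorophyll a/b binding protein took 2.40% ± 0.0262 in LOG OX1, against 2.56% ± 0.0352 in WT.

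The oxygen-evolving enhancer protein was also set against photosystem I subunit III. Their ratio was 3.69, 3.33 and 3.43 in LOG OX1, against 2.16, 2.18 and 2.17 in WT. The LOG OX1 libraries were more spread than the WT libraries here but lay above each of them. These genes do not stand for the photosystems as wholes, whose other genes were not looked at. Plastocyanin relative to photosystem I subunit III, its docking partner, was 1.66, 1.54 and 1.55 in LOG OX1, against 1.29, 1.32 and 1.25 in WT. The ratio of ferredoxin to plastocyanin, the carriers on either side of photosystem I, was 0.557, 0.545 and 0.546 in LOG OX1, against 0.525, 0.514 and 0.542 in WT. These carriers differed by nearly the same factor (1.04 times by the means), and the nearest libraries, at 0.545 in LOG OX1 and 0.542 in WT, were almost level. The chlorophyll a/b binding protein and ferredoxin were also close, with a ratio of 0.233 ± 0.00582 in LOG OX1 and 0.217 ± 0.00402 in WT (SD, n = 3 each).

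**Figure D3:**
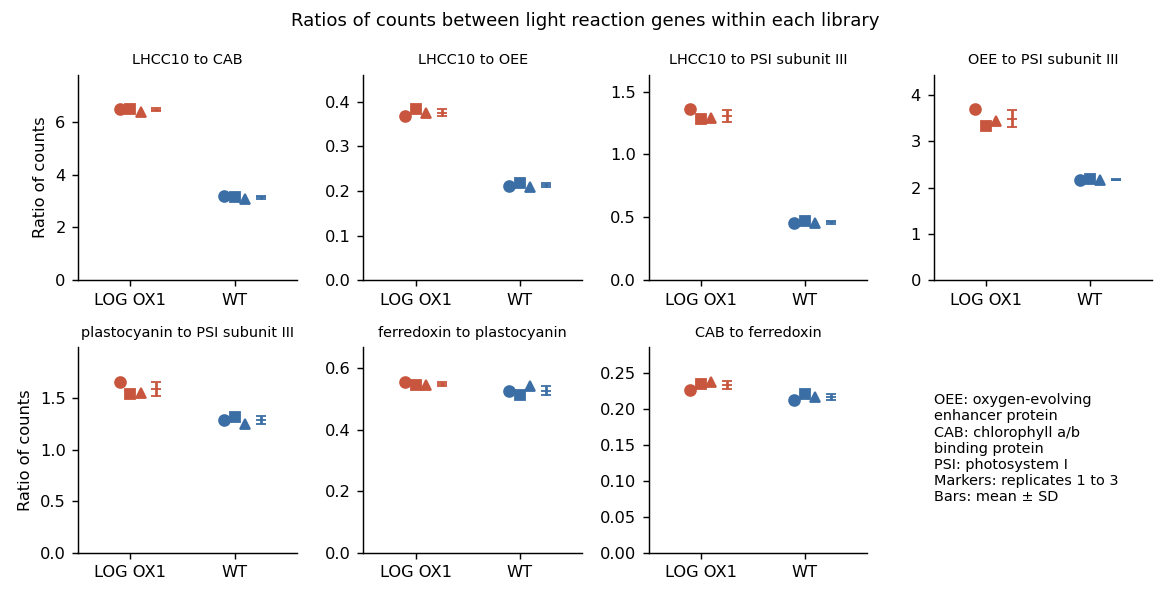
Ratios of raw counts between pairs of the light reaction genes within each library (each vertical axis starts at 0), for LOG OX1 in red left of WT in blue, with markers for replicates 1 to 3 and bars for the mean ± SD. The ratio of LHCC10 to the chlorophyll a/b binding protein doubles (2.05 times), and that of ferredoxin to plastocyanin is nearly level (1.04 times).

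Replicate cultures differed little in these genes. The CV of the 6 genes was between 0.138% and 3.15% in LOG OX1 (median 1.81%) and between 1.08% and 2.79% in WT (median 2.32%). Counting error alone gives CVs of 0.407% to 1.69% at the mean counts of these genes in LOG OX1 and of 0.704% to 2.70% in WT, so that for the chlorophyll a/b binding protein and LHCC10 the spread was close to counting error or below it. Over the 2476 genes tested with a mean of at least 1000 normalized counts, the median CV was 3.07% in LOG OX1 and 3.31% in WT. Deviations from the group mean ran from -3.43% to 2.80%. The share of all genes on each side of the mean was not counted, and genes of a library share its scaling factor. The counts that follow are thus a description, and no library pattern is read from them. WT replicate 1 lay below its group mean for 6 of the 6 genes, and WT replicate 3 above it for 5 of 6, with plastocyanin (-0.213%) as the exception. LOG OX1 replicate 1 was above its mean for 5 of 6, by 2.80% for ferredoxin and 2.44% for the enhancer protein, and below it by 3.43% for photosystem I subunit III. No batch is named in the labels, and these deviations are small beside the 2.02-fold to 5.70-fold differences between the groups.

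The position of the genes was taken from the order of the reference annotation, which the selection did not use. Each of the 6 genes has an annotated neighbour on either side, and of these 12 neighbours 3 were called higher in LOG OX1 and 1 lower, with a median log2 fold change of -0.25. Over all genes tested 14% were called higher and 14.6% lower, and with 12 genes these counts are not set apart from those shares. Both neighbours of the oxygen-evolving enhancer gene were higher. CHLNCDRAFT_59102 had 2019, 2047 and 2104 normalized counts in LOG OX1, against 1340, 1252 and 1229 in WT (log2 0.69, SE 0.045, adjusted p = 4.99e-10). CHLNCDRAFT_59104 had 12917, 13670 and 13318 in LOG OX1, against 7593, 7739 and 7335 in WT (log2 0.82, SE 0.039, adjusted p = 9.41e-12). Neither pair of groups overlapped, and both differences were smaller than that of the enhancer gene between them. The gene before the chlorophyll a/b binding protein, CHLNCDRAFT_145147, was also called higher (log2 1.26, SE 0.40, adjusted p = 0.0101), on 20.9, 17.5 and 10.1 normalized counts in LOG OX1, against 4.17, 8.57 and 7.23 in WT. This call rests on few reads. It was lost without WT replicate 1 (log2 1.03, with the adjusted p just over 0.05), and without LOG OX1 replicate 2 the gene had too few reads to be tested.

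The gene after photosystem I subunit III, CHLNCDRAFT_140717, was lower, with 470.4, 506.7 and 439.9 normalized counts in LOG OX1, against 920.2, 881.6 and 935.9 in WT (log2 -0.95, SE 0.058, adjusted p = 2.68e-10). LHCC10, with the largest difference, had neighbours at log2 fold changes of -0.08 (SE 0.087) and -0.41 (SE 0.061), neither called. Those of plastocyanin were at -0.18 (SE 0.056) and -0.57 (SE 0.045), and those of ferredoxin at -0.52 (SE 0.069) and -0.31 (SE 0.081), again not called. The plastocyanin neighbour at -0.57, CHLNCDRAFT_138366, is just short of 1.5-fold and was called without WT replicate 3 (log2 -0.60). LHCC10 and photosystem I subunit III lie near each other, with 10 genes between them (median log2 fold change 0.27). Of these 10, 2 were called higher, where 14% of all genes tested were, and with 10 genes this count is not set apart from that share. The largest log2 fold change among them, picked by its value, was that of CHLNCDRAFT_50360 at 2.71 (SE 0.19), against 2.51 for LHCC10. Nothing is read from this extreme.

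**Figure D4:**
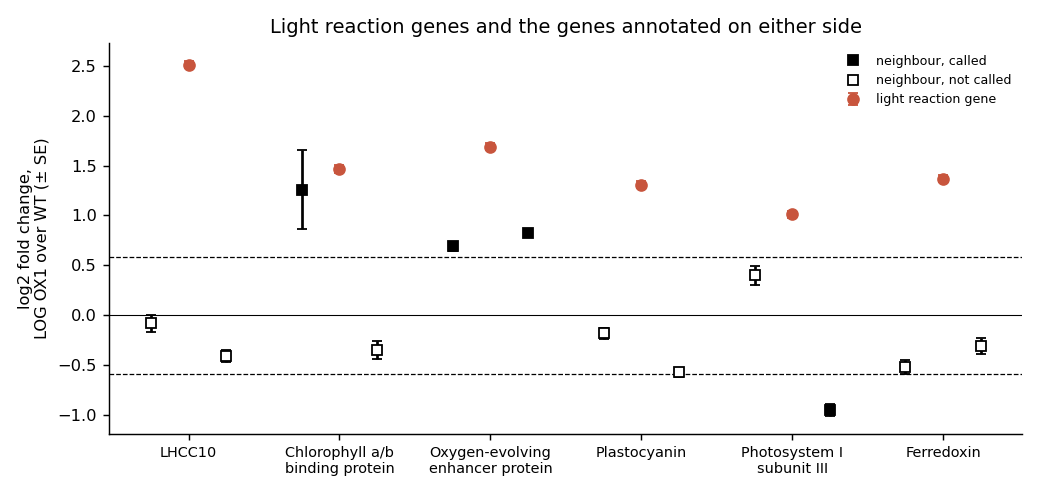
Log2 fold change of LOG OX1 over WT (± SE) for each light reaction gene (red circles) and for the genes annotated before it (left) and after it (right) as squares, filled where called, with dashed lines at 1.5-fold. The enhancer gene has called neighbours on both sides (0.69 and 0.82), whereas the neighbours of LHCC10 are at -0.08 and -0.41.

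Other genes with profiles like those of the 6 were looked up as the nearest gene by Euclidean distance between centred log2 normalized counts over the 6 libraries. For LHCC10 this was CHLNCDRAFT_59790 (distance 0.0881), with 110337, 107388 and 109309 normalized counts in LOG OX1, against 19991, 19745 and 19780 in WT. For ferredoxin it was CHLNCDRAFT_136967 (distance 0.0343), with 5841, 5667 and 5679 in LOG OX1, against 2229, 2195 and 2278 in WT. The size of the difference was alike in each pair, but the order of the replicates within a group was not the same. The nearest genes to plastocyanin, the chlorophyll a/b binding protein, photosystem I subunit III and the enhancer protein were CHLNCDRAFT_35818 (0.0361), CHLNCDRAFT_145396 (0.0523), CHLNCDRAFT_35273 (0.0557) and CHLNCDRAFT_145552 (0.12). None of the 6 nearest genes has a protein name in the sources used here.

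Antenna proteins need chlorophyll, and the genes of porphyrin and chlorophyll metabolism did not share 1 direction. The 9 genes of this pathway were listed by the study from its calls in these libraries, so that their number called is not independent evidence. Of the 9, 4 were called higher in LOG OX1 and 5 lower (median log2 fold change -0.73), where 14% and 14.6% of all genes tested were. Glutamate-1-semialdehyde aminomutase (CHLNCDRAFT_37143), which makes the common precursor 5-aminolevulinate, had 7127, 7048 and 6869 normalized counts in LOG OX1, against 3671, 3704 and 3661 in WT (log2 0.93, SE 0.038). Coproporphyrinogen oxidase (CHLNCDRAFT_142838), of the later steps common to heme and chlorophyll, had 306.6, 293 and 361.2 in LOG OX1, against 94.9, 79 and 54.2 in WT (log2 2.08, SE 0.15). Uroporphyrinogen-III C-methyltransferase (CHLNCDRAFT_141338), which leads to siroheme and away from chlorophyll, was higher as well (log2 1.39, SE 0.093). These 3 genes did not overlap between the groups.

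Magnesium chelatase inserts magnesium into protoporphyrin, the first step of the chlorophyll branch, and both subunits listed were lower. Its chlI subunit (CHLNCDRAFT_143829) had 672.6, 649.5 and 629 normalized counts in LOG OX1, against 1466, 1370 and 1370 in WT (log2 -1.11, SE 0.048). The CHLD subunit (CHLNCDRAFT_57315) averaged 262 ± 12.7 in LOG OX1 and 433 ± 24.5 in WT (SD, n = 3 each, log2 -0.73). Chlorophyll synthase (CHLNCDRAFT_34863), which attaches the phytol tail, had 1022, 1129 and 1076 in LOG OX1, against 1947, 1976 and 1945 in WT (log2 -0.86, SE 0.045). In none of these genes did a LOG OX1 library reach a WT library. Glutamyl-tRNA synthetase charges the tRNA from which the pathway starts, and the genes listed under this name were split. CHLNCDRAFT_137448, which is not named for the chloroplast, was at log2 0.86 (SE 0.050), and its place in this pathway was not tested. The chloroplast-named CHLNCDRAFT_29092 and CHLNCDRAFT_134869 were at -0.87 (SE 0.086) and -1.07 (SE 0.047).

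Carotenoids are the other pigments of the antenna. Of 7 genes of carotenoid synthesis, the xanthophyll cycle and light stress that carry a symbol in the tables, a list put together after values were seen, 0 were called higher by edgeR's quasi-likelihood test and 3 lower, where 14% and 14.6% of all genes tested were, with a median log2 fold change of -0.29. DESeq2 also called 0 higher. With no fold threshold all 7 had an adjusted p of at most 0.05, and so an unadjusted one too, 3 as higher and 4 as lower. ELIP, an early light-induced protein of the same superfamily as the antenna proteins, had 818.8, 853.1 and 854 normalized counts in LOG OX1, against 1518, 1596 and 1506 in WT (log2 -0.87, SE 0.044, adjusted p = 2.51e-11). LHCC10 and the chlorophyll a/b binding protein were higher, which their selection largely fixed. Nothing is thus read from the opposite direction of ELIP. LCYB, lycopene beta cyclase, was lower (log2 -0.73, SE 0.097), and so was ZEP, zeaxanthin epoxidase (log2 -0.65, SE 0.045), whose call was lost with upper-quartile factors (log2 -0.54). PSY (0.25, SE 0.040), ZDS (0.35, SE 0.057), VDE (0.17, SE 0.043) and LCYE (-0.29, SE 0.072), of phytoene synthesis, desaturation, violaxanthin de-epoxidation and the alpha branch, were not called.

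A second ferredoxin, CHLNCDRAFT_134196, was set beside the first after values were seen. It had 1379, 1308 and 1240 normalized counts in LOG OX1, against 2521, 2390 and 2476 in WT (log2 -0.91, SE 0.046, adjusted p = 2.5e-11). The direction was opposite to that of CHLNCDRAFT_138861, and the ratio of the first to the second was 11.7, 11.9 and 12.4 in LOG OX1, against 2.37, 2.5 and 2.52 in WT. Hydrogenase takes electrons from ferredoxin in green algae. Its genes and those of its maturation factors were not among the genes planned to be named. HYD1 was lower but short of the 1.5-fold threshold, and so not called. It had 1508, 1628 and 1661 in LOG OX1, against 2059, 2110 and 1918 in WT (log2 -0.34, SE 0.049, adjusted p = 9.58e-06 by edgeR's quasi-likelihood test). The hydrogenase maturation factors HYDEF (0.47, SE 0.046, adjusted p = 8.77e-08) and HYDG (0.18, SE 0.048, adjusted p = 0.00277) were higher but also short of that threshold. HYD2, with at most 11.5 normalized counts in any library, did not pass the filter.

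**Figure D5:**
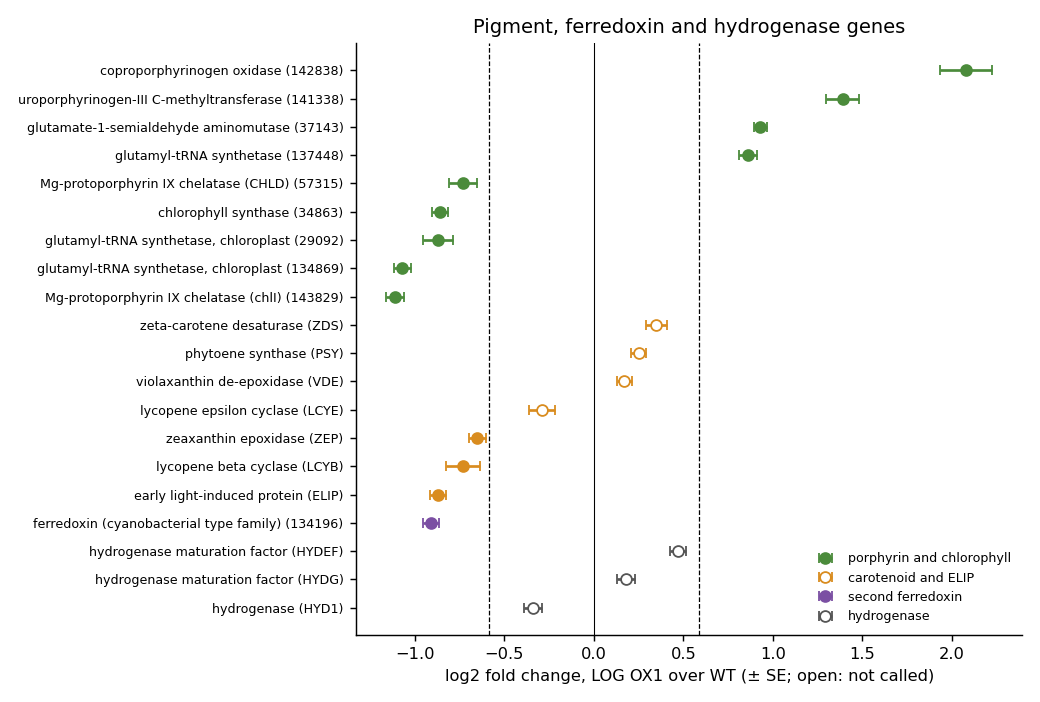
Log2 fold change of LOG OX1 over WT (± SE) of genes of porphyrin and chlorophyll metabolism, of carotenoids and ELIP, of the second ferredoxin and of hydrogenase, filled where called, with dashed lines at 1.5-fold. Porphyrin genes lie on both sides (4 higher, 5 lower), and the called carotenoid and ELIP genes lie below 0.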

How the data were processed

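Total RNA of 3 LOG OX1 and 3 WT cultures was sequenced from directional libraries. Per the submitters' processing notes and the study's methods, the authors checked reads with FastQC, trimmed them with Trim Galore, aligned them with HISAT to the NC64A genome and counted them with HTSeq. The deposited values are raw counts per gene, with no normalization. Tool versions, the strand setting and the annotation release are not given in the sources used here. All 9625 identifiers matched the reference annotation (version 1.0), which was used for gene order only. No protein or genome sequence was used, so that protein relatives, promoters, transcript lengths and the primers' match were not analysed here.

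Samples were grouped by their genotype label. Replicates are named as biological replicates. Replicate pairs differed beyond counting noise (chi-squared over degrees of freedom 2.42 to 7.33), and none were identical. Genes were kept by filterByExpr (minimum count 10), normalized by TMM and compared by the quasi-likelihood test of edgeR 4.0.16 (R 4.3.3, limma 3.58.1) with Benjamini-Hochberg adjustment over 9101 genes. Fold changes use a prior count of 0.125. Profiles use log2 of the normalized count plus 0.5. Counting error of the 6 genes was taken as 1 over the square root of the mean raw count. Alternatives were DESeq2 1.42.0, RLE and upper-quartile factors, library size only, glmTreat, other filters and fold thresholds, a replicate block and each library left out. The models were tested on simulated data. Python 3.11.15 with numpy 2.4.6, pandas 2.3.3, scipy 1.17.1 and matplotlib 3.10.9 was used for the rest.

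The 6 genes and the lists were chosen with earlier results of these data known. Genes named by plan are the 6, CvarLOG1, the porphyrin and chlorophyll list, direct neighbours and nearest profiles. Genes and lists described as chosen or put together after values were seen fall outside that rule. The hydrogenase genes and CHLNCDRAFT_50360 fall outside it too. A list of photosynthesis genes by annotated product name and one by protein similarity were planned but could not be made. The reference annotation used here held neither product names nor protein sequences, so other light reaction genes were not looked at as a class.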

Additional observations from a re-analysis of the deposited data

How the results depend on the processing

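The order of the 6 genes and their direction were the same under the alternatives run. Their median log2 fold change was 1.42, with a range of 1.41 to 1.44 when 1 library was left out, and it moved to 1.53 with upper-quartile factors, which also moved the median of all genes to 0.112. The 2602 calls over all genes became 1193 at a fold change of at least 2 and 6536 with no fold threshold, 1929 with glmTreat, and 2615 to 2666 without 1 library. The porphyrin and chlorophyll calls numbered 9, and 4 at a fold of at least 2. The 3 calls among carotenoid and ELIP genes became 1 with glmTreat (ELIP), 0 at a fold of at least 2 and 7 with no fold threshold. The 4 calls among neighbours became 1 at a fold of at least 2 and 11 with no fold threshold, and 3 to 5 without 1 library. The calls of CHLNCDRAFT_145147 and of the magnesium chelatase subunit CHLNCDRAFT_57315 were lost with glmTreat. CHLNCDRAFT_56931, not called, changed sign with upper-quartile factors (log2 0.036). The cause of these changes beyond the thresholds themselves was not tested. With the replicate number as a block, 2603 genes were called, against 2602. Same-numbered libraries did not deviate together (correlations of -0.015, 0 and -0.216 over 8926 genes). Libraries with unlike numbers gave correlations from -0.144 to 0.148. No pairing by number was thus seen, but 3 libraries a group cannot exclude one. Alternatives that need protein similarity or transcript lengths were not run. The depth of 10180885 to 12546100 counts limits only genes with few reads, such as CHLNCDRAFT_145147. All differences rest on 1 line, 1 time point and 3 cultures a group. The groups also differed in growth state at that time point, and the part of growth state in these differences was not tested.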

Other observations

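Other chloroplast-named genes, chosen after their values were seen, also differed between the groups. Of 6 genes named for plastid ribosomal proteins, 6 were called higher in LOG OX1, where 14% of all genes tested were. They were taken from the study's list of calls in these libraries, which fixes that they are called. Their log2 fold changes ran from 0.88 to 0.95, against 1.01 to 2.51 for the light reaction genes. Both sets were chosen with values known, so the widths of these ranges are not compared. The gene for 50S ribosomal protein L13 (CHLNCDRAFT_22955) had 6177, 5934 and 5693 normalized counts in LOG OX1, against 2972, 2960 and 3300 in WT. All 6 were called under the alternatives run except a fold change of at least 2, which left 0 called by edgeR, all 6 still with an unadjusted p of at most 0.05.

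ARC5 (CHLNCDRAFT_37081), a dynamin-related protein that constricts dividing plastids in Arabidopsis, had 1246, 1288 and 1253 normalized counts in LOG OX1, against 177.4, 192.3 and 165.3 in WT (log2 2.82, SE 0.061), above LHCC10 in size. A NifU-like protein (CHLNCDRAFT_144603), of a family that builds iron-sulfur clusters such as that of ferredoxin, had 401.2, 387.8 and 365.7 in LOG OX1, against 736.6, 768.3 and 766 in WT (log2 -0.98, SE 0.057). A membrane-associated 30 kDa protein of the chloroplast (CHLNCDRAFT_59172) averaged 1383 ± 64.8 in LOG OX1 and 2401 ± 38.5 in WT (SD, n = 3 each, log2 -0.80). The NifU-like and 30 kDa genes were thus lower, and the light reaction genes described here higher. Both sets were chosen with values of these libraries known, so nothing is read from this contrast.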
